A study of Mus musculus with 60 samples.

Results

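The genes described here are 10 imprinted genes studied in the brain, Meg3, Rian, Mirg, Dlk1, Peg3, Peg10, Snrpn, Ndn, Grb10 and Cdkn1c, measured in the mouse dentate gyrus (DG). They were taken by name from the 46480 genes of the RNA-seq files, and each had 1 row. The libraries came from total RNA of punched whole tissue of the dorsal or the ventral DG of male C57BL6J mice killed at 80 days of age. From weaning on day 22 the mice had lived for 8 weeks either in standard housing (SH), with 3 males per cage, or in an enriched environment (EE), with 12 males in a large cage with running wheels and toys that were changed weekly. Region and housing together gave 4 groups, with no drug and no genetic change in any of them. Each replicate was a pool of tissue from several mice, and the dorsal and ventral libraries of a replicate came from the same mice. SH replicate 3 was left out in both regions, which left 4 SH and 5 EE pools, or 18 libraries. Its level of Xist, an RNA made in cells with more than 1 X chromosome, was 34.3 counts-per-million (CPM) in the dorsal and 11.9 CPM in the ventral library, against at most 0.65 CPM in the 18 others, although all samples are labelled male.

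Imprinted genes are expressed mainly from the copy inherited from 1 parent, because DNA methylation set in the germline marks the parental copies differently. They lie in clusters in which protein-coding genes often face long noncoding RNAs made from the opposite parental copy. Many are highly expressed in the developing brain, and several act on growth, neural stem cells or hypothalamic function. In the Dlk1-Dio3 cluster on chromosome 12 the maternal copy makes the noncoding RNAs Meg3, Rian (a host of small nucleolar RNAs) and Mirg (a host of microRNAs), while Dlk1, a transmembrane ligand related to the Notch ligands, is made from the paternal copy. On chromosome 7, Snrpn (a protein of the spliceosome) and Ndn (necdin, a MAGE family protein of postmitotic neurons) are paternal genes of the region whose human counterpart is lost in Prader-Willi syndrome. Peg3, a zinc finger protein, and Peg10, derived from a retrotransposon, are also paternal, Grb10, an adaptor that restrains insulin receptor signaling, is paternal in neurons and maternal in most other tissues, and Cdkn1c, the cell cycle inhibitor p57, is maternal. All mice were of 1 inbred strain, so reads of the 2 parental copies could not be told apart and every value below is the sum of both.

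The spans of the 3 noncoding RNAs of chromosome 12 hold 35 mature microRNAs of the RefSeq table (GRCm38.p6), 3 within Meg3, 6 within Rian and 26 within Mirg. The RNA-seq libraries measured the host transcripts and not the mature microRNAs. A few are printed here because the seed, bases 2 to 8 in capitals, decides which messages a microRNA pairs with, and because they show how unlike the products of 1 host are. The 35 had 34 different seeds. The last pair printed, both from Mirg, shared the seed GGUUGCC.
miR-770-5p: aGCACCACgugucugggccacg
miR-341-3p: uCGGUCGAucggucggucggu
miR-370-3p: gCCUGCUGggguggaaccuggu
miR-134-5p: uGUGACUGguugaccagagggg
miR-382-5p: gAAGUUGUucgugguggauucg
miR-154-3p: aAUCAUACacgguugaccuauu
miR-410-3p: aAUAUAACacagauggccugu
miR-453: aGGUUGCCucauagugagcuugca
miR-496a-5p: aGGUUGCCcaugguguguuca
The first comes from the span of Meg3, the next pair from that of Rian and the rest from that of Mirg.

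RefSeq promoter windows, from 250 bases before to 50 bases after a transcript start, were given for 8 of the 10 genes, Peg10 and Cdkn1c being the others. Windows of Meg3, Peg3 and Ndn are printed because Meg3 and Peg3 carry a motif that few promoters hold and because Ndn had the smallest adjusted p of the 10 genes between regions. The Meg3 window was chr12:109540746-109541045 on the plus strand, and capitals mark TGACGTCA, the cAMP response element, which reads the same on both strands and was found in 1.79% of 32851 promoter windows.
Meg3: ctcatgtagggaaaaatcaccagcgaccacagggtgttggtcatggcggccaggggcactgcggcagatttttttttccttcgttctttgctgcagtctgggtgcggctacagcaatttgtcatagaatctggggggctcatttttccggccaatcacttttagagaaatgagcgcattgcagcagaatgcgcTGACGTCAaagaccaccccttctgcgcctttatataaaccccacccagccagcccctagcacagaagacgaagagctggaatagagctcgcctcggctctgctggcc
The Peg3 window was chr7:6730370-6730669 on the minus strand. It shares 263 bases with the window of Usp29, a ubiquitin protease gene that runs in the opposite direction, so 1 copy of the cAMP response element, in capitals, lies in both windows.
Peg3: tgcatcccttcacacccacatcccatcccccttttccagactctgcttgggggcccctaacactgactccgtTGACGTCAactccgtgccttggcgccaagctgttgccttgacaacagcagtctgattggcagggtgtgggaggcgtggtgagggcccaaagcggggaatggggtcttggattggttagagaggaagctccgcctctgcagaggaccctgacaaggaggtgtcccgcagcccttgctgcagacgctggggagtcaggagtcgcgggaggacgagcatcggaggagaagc
The Ndn window was chr7:62348027-62348326 on the plus strand, and capitals mark its 2 overlapping GC boxes (GGGCGG, searched on both strands), a motif of 35.7% of all windows.
Ndn: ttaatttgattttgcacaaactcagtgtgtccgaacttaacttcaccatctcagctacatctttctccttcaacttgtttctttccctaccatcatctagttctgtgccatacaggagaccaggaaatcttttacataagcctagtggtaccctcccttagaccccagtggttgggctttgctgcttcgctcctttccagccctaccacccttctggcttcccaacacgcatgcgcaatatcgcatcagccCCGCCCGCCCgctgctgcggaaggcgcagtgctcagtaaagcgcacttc
The printed windows of Meg3 and Peg3 held 13 CpG each and that of Ndn 11, against a median of 7 over all windows. These values lay between the quartiles of all windows, 3 and 20. A second Meg3 window, at a start further downstream, held 1 CpG and no cAMP response element. The window of Magel2, the neighbor of Ndn, also held 2 GC boxes. A match says only that these letters are present.

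The 18 libraries held between 22919364 and 28301861 counts on genes (median 25816352), which is the depth behind all values below. No pair of replicates differed by less than sampling noise. The markers of dentate granule cells set out the tissue: all 6 of 6 (among them Prox1 and C1ql2) were present and higher in dorsal, with a summed level of 829 to 1025 CPM in dorsal and 430 to 638 CPM in ventral libraries. All 12 of 12 choroid plexus markers were lower in dorsal, with a summed level of 28.5 to 221 CPM in dorsal and 407 to 1491 CPM in ventral libraries. Of the 5 mossy cell markers, Calb2 was lower in dorsal (log2 fold change −2.42), Nmb (0.72) and Ajap1 (0.19) were higher, and Drd2 and Csf2rb2 were not called. Of the 6 markers of thalamus and habenula 4 were higher in dorsal (Gpr151, Prkcd, Lef1 and Nwd2) and Tcf7l2 and Rora were not called. Without Prkcd (2.32), a gene left out after its value was seen, their summed level overlapped between regions, with 124 to 184 CPM in dorsal and 139 to 158 CPM in ventral libraries. In these bulk samples fewer cells of a type and less RNA per cell cannot be told apart. The part of these markers in the results below was not tested, except where a value is given.

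Between the regions, 7 of the 10 imprinted genes passed the test (edgeR quasi-likelihood, adjusted p under 0.05, mean of SH and EE), where 58.4% of 17040 genes tested did. Lower in dorsal DG were 5, namely Dlk1, Cdkn1c, Rian, Ndn and Snrpn, against 29.3% of all genes, and higher were 2, namely Peg10 and Peg3, against 29%. Meg3, Mirg and Grb10 did not pass. The share of members is thus near the background, and the median log2 fold change (dorsal over ventral) of the 10 was −0.17 beside −0.0046 for all genes. Dlk1 entered the test only through its ventral libraries, since no dorsal library had more than 10 counts. The count limit thus bore on the direction of its difference. The 9 dorsal and the 9 ventral libraries did not overlap for 4 of the 10 (Rian, Dlk1, Snrpn and Ndn, all higher in ventral), where 18.9% of all genes tested showed no overlap and 9.44% none with ventral higher. Dlk1 is included in this count and among the 7 genes called, as a description only.

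**Figure D1:**
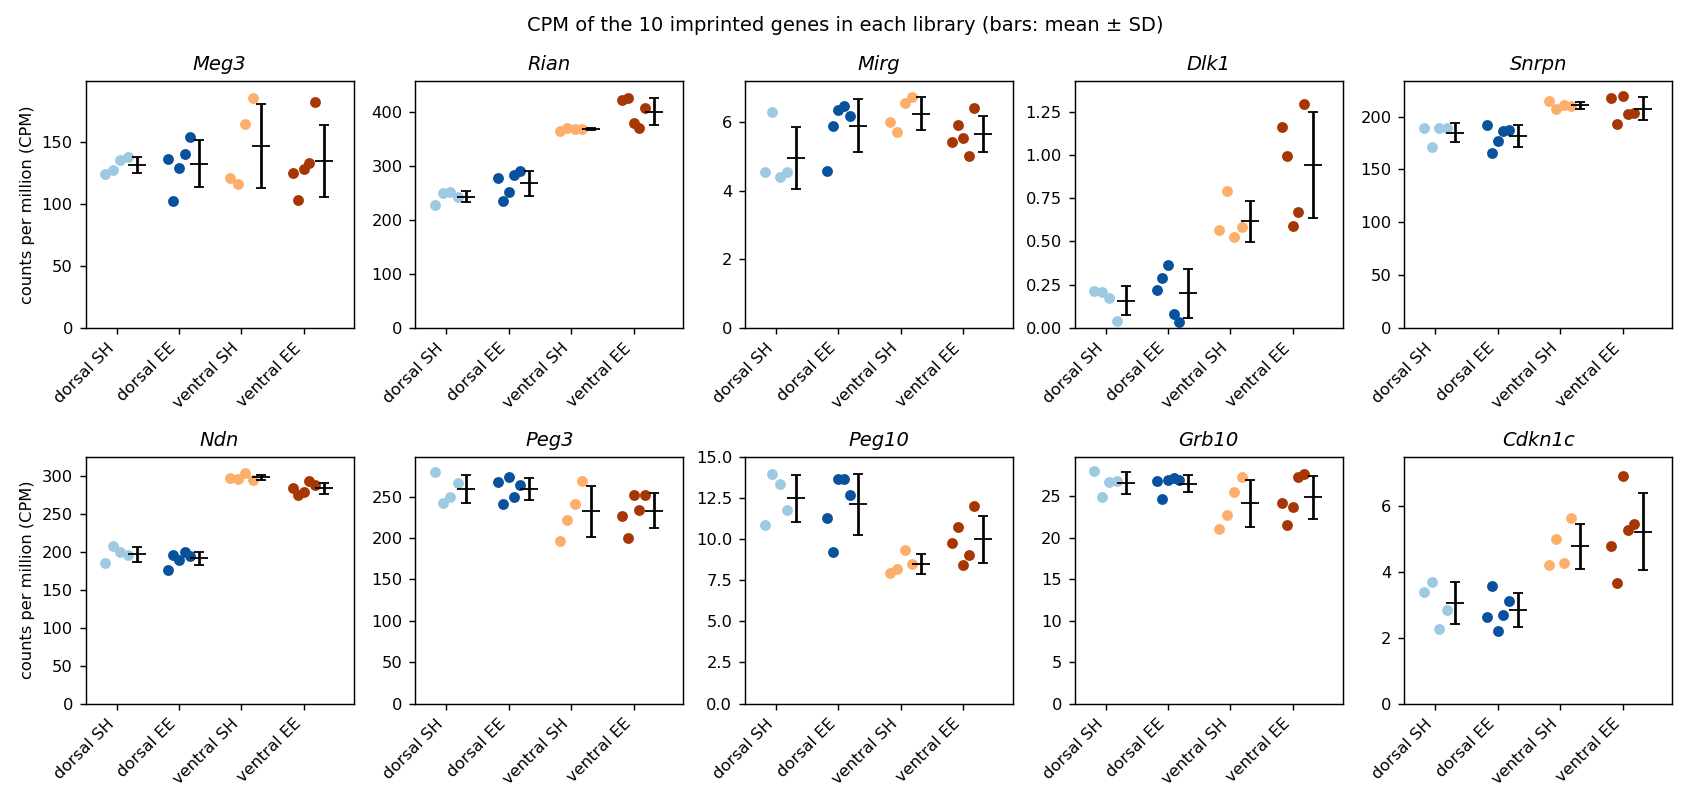
CPM of the 10 imprinted genes (y axes from 0) in each library of the 4 groups, with points for libraries and bars for the mean ± SD. Rian and Ndn separate the regions widely, 3 ventral libraries of Meg3 reach 164 to 185 CPM, and Dlk1 stays below 0.37 CPM in every dorsal library.

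Per unit of length, the genes differed widely in level. On the scale of RSEM expected counts, scaled as CPM and divided by effective length in kilobases, and averaged over the 18 libraries, Snrpn stood at 271, Rian at 252 and Ndn at 161, followed by Meg3 at 39.6, Peg3 at 28.7, Grb10 at 6.37, Mirg at 3.51, Cdkn1c at 1.96, Peg10 at 1.62 and Dlk1 at 0.295. The libraries of Snrpn (243 to 302) lay within those of Rian (182 to 328), and those of Rian overlapped those of Ndn (117 to 202). Meg3 (25.4 to 59.5) and Peg3 (23.3 to 32.5) also overlapped, as did Cdkn1c (1.06 to 3.28) and Peg10 (1.13 to 2.10), whereas Grb10 (4.78 to 7.58) lay above Mirg (2.21 to 4.62) throughout and Dlk1 (0.0485 to 0.799) lowest. With the STAR counts used for the tests, the level of Snrpn was 110 CPM per kilobase, behind Rian and Ndn. RSEM assigned 2.46 times as many reads to Snrpn as STAR did, the largest such ratio of the 10, and Snurf, a gene nested in Snrpn, was at 0 in every library.

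Rian (chr12:109603940-109661716, plus strand) was the best measured gene of the Dlk1-Dio3 cluster. In dorsal SH it reached 228, 249, 252 and 242 CPM in replicates 1, 2, 4 and 5, and in ventral SH 364, 370, 369 and 368 CPM. In dorsal EE replicates 1 to 5 it reached 278, 235, 252, 283 and 290 CPM, and in ventral EE 421, 425, 379, 369 and 407 CPM. Every ventral library lay above every dorsal one. Dorsal over ventral, the log2 fold change was −0.59 ± 0.04 (SE; adjusted p = 6.5e-11, edgeR), with −0.60 in SH and −0.58 in EE, and the dorsal level was lower in 9 of 9 pools.

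Meg3 (chr12:109541001-109571726, plus strand), which starts upstream of Rian on the same strand, did not follow it. Its levels were 124, 127, 135 and 138 CPM in dorsal SH and 121, 116, 164 and 185 CPM in ventral SH. In dorsal EE they were 136, 102, 129, 140 and 154 CPM, and in ventral EE 125, 103, 128, 133 and 182 CPM. Ventral replicates 5 of both housings and ventral SH replicate 4 stood high, while the remaining ventral libraries lay within the dorsal range. Meg3 had a log2 fold change of −0.09 ± 0.10 (adjusted p = 0.443, edgeR), with a 95% confidence interval from −0.29 to 0.11, and Meg3 was higher in dorsal in 5 of 9 pools.

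Mirg (chr12:109729764-109749460, plus strand) was much scarcer, at 103 to 184 counts per library. It stood at 4.55, 6.29, 4.40 and 4.54 CPM in dorsal SH and at 6.00, 5.71, 6.56 and 6.72 CPM in ventral SH. In dorsal EE it stood at 4.57, 5.88, 6.34, 6.48 and 6.19 CPM, and in ventral EE at 5.44, 5.93, 5.53, 5.00 and 6.41 CPM. Low values were thus seen in 3 of 4 dorsal SH libraries and in 1 dorsal EE library. Over both housings the log2 fold change of dorsal over ventral was −0.14 ± 0.08 (adjusted p = 0.136, edgeR). In SH alone it was −0.34 ± 0.12 (adjusted p = 0.0268), and in EE 0.06 ± 0.11 (adjusted p = 0.697). The SH call was lost when SH replicate 1, 4 or 5 was left out (adjusted p = 0.0959, 0.144 and 0.16) and when SH replicate 3 was added (0.2), while RSEM counts gave a call over both housings (−0.28, adjusted p = 0.0154), as did leaving out SH replicate 2 (−0.23, adjusted p = 0.0157).

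Since Meg3, Rian and Mirg lie in tandem, their read counts within a library give ratios that no normalization affects. They were computed after the levels above were known and are given as a description. There were 1.85 ± 0.08 Rian reads per Meg3 read (SD, n = 4) in dorsal SH and 2.61 ± 0.59 in ventral SH, and 2.04 ± 0.16 (n = 5) in dorsal EE against 3.09 ± 0.70 in ventral EE. The ratio was higher in the ventral library of each pool, although the regions overlapped, with 1.76 to 2.30 in dorsal and 1.99 to 4.12 in ventral libraries. Rian reads per Mirg read were 46.2 ± 8.7 in dorsal EE and 71.0 ± 5.3 in ventral EE, without overlap (39.7 to 60.8 against 63.5 to 77.4). In SH the corresponding values, 50.1 ± 7.6 and 59.1 ± 4.6, overlapped.

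**Figure D2:**
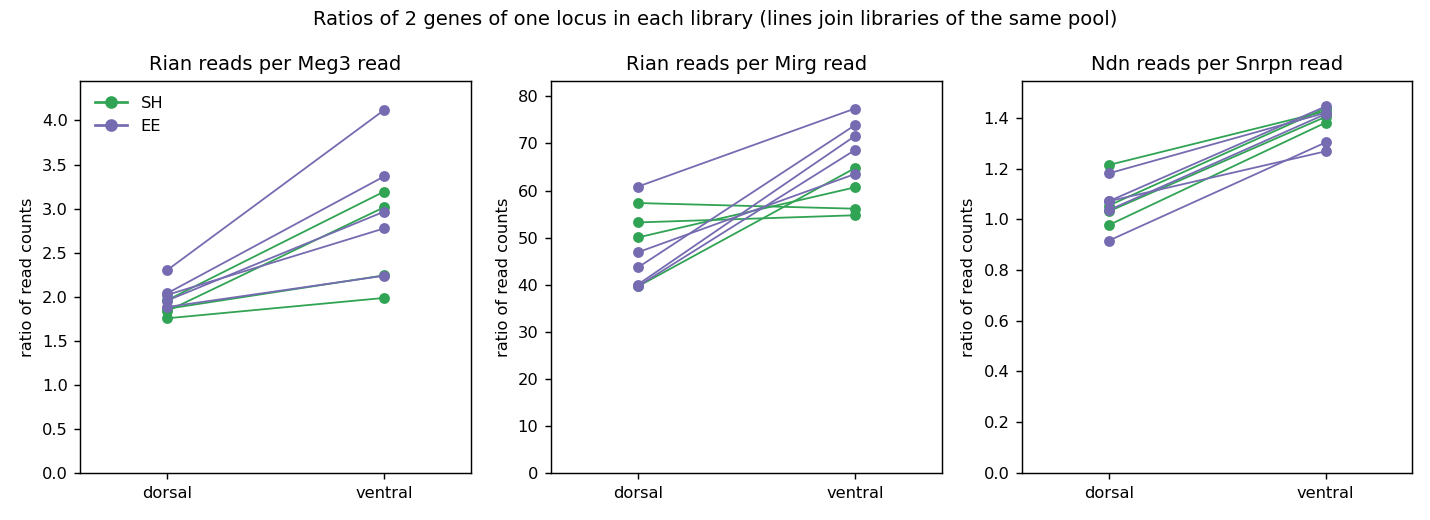
Ratios of read counts of gene pairs from 1 locus (y axes) in the dorsal and ventral library of each pool (x axis), with lines joining the libraries of a pool and colors for SH and EE. Rian per Meg3 and Ndn per Snrpn are higher in the ventral library in all 9 pools, and Rian per Mirg in 8 of 9.

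Of the paternal genes of the cluster, Dlk1 and Dio3 could be tested. Dlk1 (chr12:109452823-109463336, plus strand) had 6, 5, 4 and 1 counts in dorsal SH and 16, 21, 13 and 16 in ventral SH. It had 6, 7, 9, 2 and 1 counts in dorsal EE and 30, 22, 15, 17 and 35 in ventral EE. As CPM these were 0.16 ± 0.08 (SD, n = 4) and 0.62 ± 0.12 in SH, and 0.20 ± 0.14 (n = 5) and 0.94 ± 0.31 in EE. No dorsal library reached the lowest ventral one, and the log2 fold change was −2.10 ± 0.29 (adjusted p = 2.09e-06, edgeR). The width of its interval (−2.70 to −1.50) was set by the few counts. Dlk1 entered the test only through its ventral libraries, so these values are given as a description only. Dio3, the enzyme that inactivates thyroid hormone at the other end of the cluster, had a larger fold change. It stood at 0.38 ± 0.04 CPM in dorsal SH against 3.24 ± 0.21 CPM in the ventral SH libraries. Its log2 fold change over both housings was −3.30 ± 0.16 (adjusted p = 1.21e-13, edgeR). It had more than 10 counts in only 2 of 9 dorsal libraries. Begain, a synaptic gene at the border of the cluster, was lower in dorsal in 9 of 9 pools (log2 fold change −0.52 ± 0.05), and Rtl1 was below the count limit.

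In the Snrpn-Ube3a region the 2 members differed in size. Ndn (chr7:62346569-62350262, plus strand) reached 185, 208, 199 and 195 CPM in dorsal SH and 297, 296, 303 and 294 CPM in ventral SH. In EE it reached 176, 196, 189, 199 and 194 CPM in dorsal and 284, 275, 279, 293 and 288 CPM in ventral libraries. The highest dorsal library was well below the lowest ventral one. Ndn had a log2 fold change of −0.58 ± 0.03 (adjusted p = 8.5e-13, edgeR), the smallest adjusted p of the 10 genes.

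Snrpn (chr7:59982495-60140219, minus strand) stood at 189, 171, 189 and 189 CPM in dorsal SH and at 215, 207, 211 and 210 CPM in ventral SH. In EE it stood at 193, 166, 177, 186 and 188 CPM in dorsal and at 218, 193, 220, 203 and 204 CPM in ventral libraries. The regions did not overlap, but the gap was narrow, from 192.5 CPM in the highest dorsal to 193.5 CPM in the lowest ventral library. Snrpn had a log2 fold change of −0.19 ± 0.04 (adjusted p = 9.7e-05, edgeR), the same to 2 decimals in SH and in EE, and −0.16 with RSEM counts (adjusted p = 0.00012). Ndn reads per Snrpn read were 1.07 ± 0.10 in dorsal SH and 1.41 ± 0.03 in ventral SH, and 1.06 ± 0.10 and 1.37 ± 0.08 in EE.

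Of the other genes of this region, Magel2, a MAGE family gene next to Ndn, was lower in dorsal (log2 fold change −2.02 ± 0.22, adjusted p = 8.83e-08, edgeR), at 0.16 to 0.66 CPM in dorsal and 0.72 to 2.06 CPM in ventral libraries, with more than 10 counts in 2 of 9 dorsal libraries. Snhg14, the long host of small nucleolar RNAs that runs on toward Ube3a, did not pass (0.02 ± 0.04), nor did Ube3a, the ubiquitin ligase expressed from the maternal copy in neurons (0.04 ± 0.05), Mkrn3 (0.003 ± 0.14) or Atp10a (0.03 ± 0.07). Of the 7 genes tested here, 3 were thus lower in dorsal and none higher, where 29.3% of all genes were lower and 29% higher.

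Peg3 and Peg10, the members higher in dorsal, lie on different chromosomes. Peg10 (chr6:4747306-4760517, plus strand) stood at 10.8, 14.0, 13.3 and 11.8 CPM in dorsal SH and at 7.91, 8.15, 9.32 and 8.51 CPM in ventral SH. In EE it stood at 11.3, 9.24, 13.7, 13.7 and 12.7 CPM in dorsal and at 9.74, 10.7, 8.42, 9.02 and 12.0 CPM in ventral libraries. The SH groups did not overlap, and the EE groups did. The log2 fold change was 0.42 ± 0.08 over both housings (adjusted p = 0.000106, edgeR), 0.56 ± 0.12 in SH and 0.28 ± 0.11 in EE (adjusted p = 0.0338). Leaving out EE replicate 1, 3 or 4 raised the adjusted p of the EE value to 0.0622, 0.219 and 0.17.

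Peg3 (chr7:6703892-6730431, minus strand) stood at 280, 242, 250 and 266 CPM in dorsal SH and at 197, 222, 242 and 270 CPM in ventral SH. In EE it stood at 268, 241, 274, 249 and 264 CPM in dorsal and at 227, 200, 252, 235 and 252 CPM in ventral libraries. The regions overlapped, with the dorsal library higher in 8 of 9 pools. The log2 fold change was 0.16 ± 0.05 (adjusted p = 0.0176, edgeR), and it did not pass without SH replicate 1 (0.10, adjusted p = 0.101) or without EE replicate 1 (0.14, adjusted p = 0.0514). Within SH and within EE it passed when the pool was a block (adjusted p = 0.0413 and 0.0296) but not without the block (0.121 and 0.089).

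Neighbors of both genes were also tested. Usp29, whose promoter window shares the cAMP response element printed above with Peg3, was higher in dorsal in 9 of 9 pools, with a log2 fold change of 0.35 ± 0.05 (adjusted p = 3.36e-06, edgeR). Zim1, a zinc finger gene of the same domain made from the maternal copy, was not called (0.13 ± 0.10, adjusted p = 0.281). Beside Peg10, Sgce (a sarcoglycan) was higher by 0.11 ± 0.05 (adjusted p = 0.0398) and Ppp1r9a (neurabin, an actin-binding protein of dendritic spines) by 0.45 ± 0.03 (adjusted p = 8.06e-11), while Asb4 was not called (0.09 ± 0.18).

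Grb10 (chr11:11930508-12038683, minus strand) was close to the threshold. It stood at 28.0, 24.8, 26.7 and 26.8 CPM in dorsal SH and at 21.0, 22.7, 25.5 and 27.3 CPM in ventral SH. In EE it stood at 26.8, 24.7, 26.9, 27.2 and 26.9 CPM in dorsal and at 24.1, 21.5, 23.6, 27.3 and 27.7 CPM in ventral libraries. Dorsal libraries were closely spaced, and ventral ones reached both lower and nearly as high. The log2 fold change of 0.12 ± 0.05 missed the threshold (adjusted p = 0.0613, edgeR). It passed with the pool as a block (0.12, adjusted p = 0.0234), with all 20 libraries (0.0491), and without SH replicate 5, EE replicate 4 or EE replicate 5 (0.0275, 0.0485 and 0.038). Ddc, its neighbor, was not called (−0.17 ± 0.09).

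Cdkn1c (chr7:143458339-143461050, minus strand) stood at 3.37, 3.70, 2.26 and 2.83 CPM in dorsal SH and at 4.20, 5.00, 4.26 and 5.63 CPM in ventral SH. In EE it stood at 2.62, 3.56, 2.20, 2.69 and 3.11 CPM in dorsal and at 4.78, 3.67, 6.90, 5.28 and 5.45 CPM in ventral libraries. Ventral exceeded dorsal in 9 of 9 pools, and the ranges overlapped only through ventral EE replicate 2. Its log2 fold change was −0.76 ± 0.12 (adjusted p = 7.45e-06, edgeR). In SH alone it was −0.65 ± 0.17 (adjusted p = 0.00466), which became −0.52 (adjusted p = 0.0525) without SH replicate 5.

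The level of Cdkn1c moved with the choroid plexus markers. Ventral EE replicate 3, with the highest summed marker level of 1491 CPM, had the highest Cdkn1c, and ventral SH replicate 5, with the next highest of 1153 CPM, the next. Ventral EE replicate 2 and SH replicate 1, with the lowest ventral sums of 434 and 407 CPM, had the lowest Cdkn1c. Over the 9 ventral libraries, Pearson's r of the log2 levels was 0.92 for Cdkn1c, 0.90 for Igf2 (a growth factor made in choroid plexus) and 0.88 for Peg3. It was 0.66 for Grb10, 0.51 for Meg3 and 0.29 for Snrpn, but −0.08 for Mirg, −0.10 for Peg10, −0.23 for Dlk1, −0.27 for Rian and −0.09 for Ndn. These libraries held 22919364 to 28186346 counts on genes, and 34.7 to 40.9% of their reads were not on a gene. The part of depth and of this share in these r was not tested. In the 9 dorsal libraries r was 0.50 for Cdkn1c, 0.39 for Peg3, 0.295 for Igf2 and −0.64 for Rian. For the other members it lay between −0.435 (Meg3) and 0.247 (Dlk1). Dorsal SH replicate 1 stood apart in its marker sum, at 221 CPM against 74.3 CPM in the next dorsal library. It also had the lowest Rian, at 228 CPM, and its weight in the dorsal r was not tested. The part of choroid plexus RNA in the difference of Cdkn1c was not tested. Dlk1 was 1.30 CPM in ventral EE replicate 5 and 1.16 CPM in ventral EE replicate 1, which had marker sums of 848 and 592 CPM, and 0.59 CPM in the library with the highest sum.

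**Figure D3:**
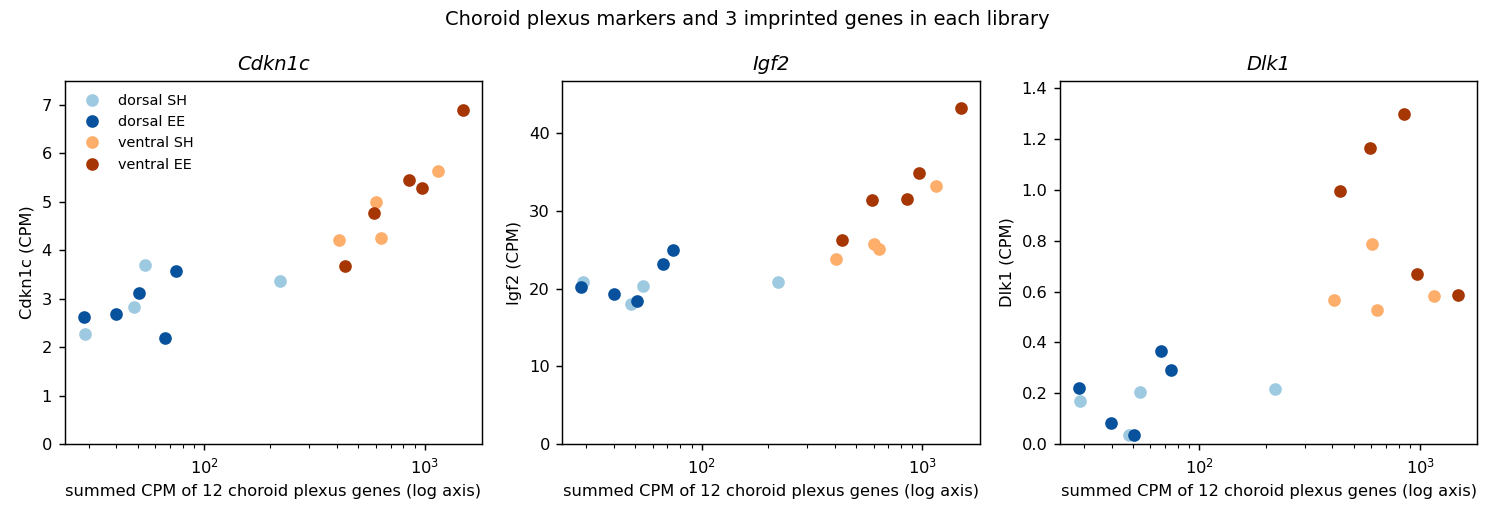
CPM of Cdkn1c, Igf2 and Dlk1 (y axes) against the summed CPM of 12 choroid plexus markers (x axis, log scale) in each of the 18 libraries, colored by group. Among ventral libraries Cdkn1c and Igf2 climb with the markers, and Dlk1 does not.

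For comparison, 48 further imprinted genes were listed, of which 37 could be tested, 9 fell below the count limit and 2 had no row. Of the 37, 10 were higher and 15 lower in dorsal DG, where 29% and 29.3% of all genes were, and their median log2 fold change was −0.0072. Over the 37, the 3 largest differences beside Dio3 and Magel2 were those of Plagl1, a zinc finger transcription factor (−2.09 ± 0.09), Nnat, a proteolipid of neurons (−2.04 ± 0.06), and Zdbf2 (−0.83 ± 0.07). Nnat rose from 79.5 to 99.95 CPM in dorsal libraries to 318 to 430 CPM in ventral ones. Plagl1 rose from 2.87 to 4.57 CPM to 12.1 to 19.6 CPM, and its r with the choroid plexus markers over ventral libraries was 0.74.

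Smaller differences were also called. Lower in dorsal were Igf2 (−0.55 ± 0.08), Airn, an antisense RNA (−0.43 ± 0.18), Mest (−0.37 ± 0.05), Commd1 (−0.33 ± 0.07) and Gnas, the stimulatory G protein alpha subunit (−0.32 ± 0.03). Higher in dorsal were Kcnq1ot1, the paternal antisense RNA of the Cdkn1c domain (0.63 ± 0.07), and Rasgrf1, a Ras exchange factor (0.31 ± 0.05). Kcnq1ot1 and Cdkn1c thus differed in opposite directions. Kcnq1ot1 stood at 53.0 CPM or more in each dorsal library, above every ventral one.

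**Figure D4:**
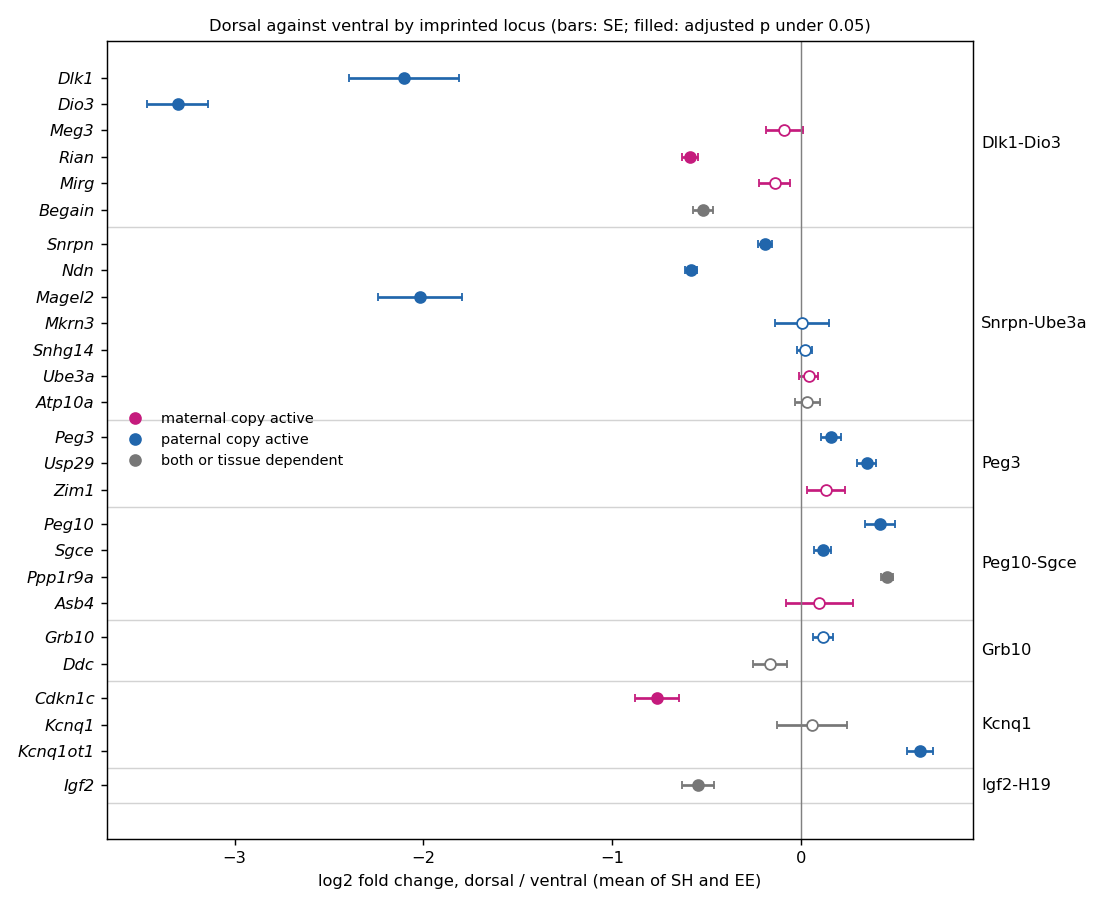
Log2 fold change of dorsal over ventral (x axis, mean of SH and EE) for the genes of 7 imprinted loci (y axis), with bars for the SE, filled points for adjusted p under 0.05 and colors for the active parental copy. In the Dlk1-Dio3 and Snrpn-Ube3a loci all filled points lie left of 0, and in the Peg3 and Peg10-Sgce loci all lie right of it.

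The housing of the mice was the second question. In dorsal DG none of the 10 genes (0 of 10) passed the edgeR test for EE against SH, where 0.716% of all genes did. In ventral DG 0 of 10 passed, where 0.246% of all genes did. DESeq2 also called 0 in both. At an unadjusted p under 0.05, a level for which the share of all genes is not given here, there were 2 in dorsal and 0 in ventral DG. Those were Rian, with a log2 fold change of EE over SH of 0.14 ± 0.06 (adjusted p = 0.462), and Mirg, with 0.25 ± 0.12 (adjusted p = 0.531). In ventral DG Rian had a value of 0.12 ± 0.06 (adjusted p = 0.657).

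The intervals show what size of effect the data allow. For 9 of the 10 genes the 95% confidence interval of the log2 fold change of EE over SH lay within ±0.5 in dorsal DG and likewise in ventral DG, the exception being Dlk1 in both regions. For Ndn it ran from −0.14 to 0.05 in dorsal and from −0.16 to 0.02 in ventral DG. For Snrpn it ran from −0.13 to 0.08 in both. For Peg3 it ran from −0.16 to 0.16 in both, and for Meg3 from −0.28 to 0.30 in dorsal and −0.41 to 0.16 in ventral DG. For Peg10 in ventral DG the value was 0.24 with an interval from −0.0009 to 0.48. For Dlk1 the interval ran from −0.84 to 1.45 in dorsal and from −0.02 to 1.25 in ventral DG, so a 2-fold difference lies within both.

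**Figure D5:**
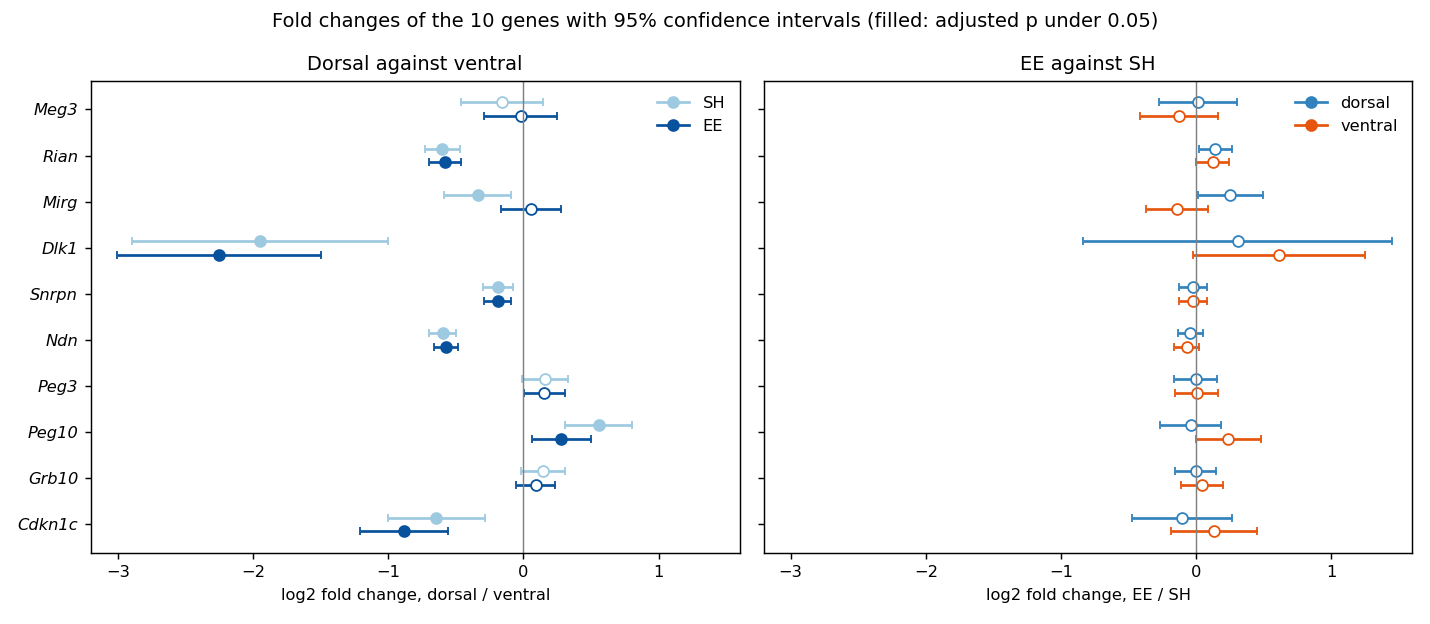
Log2 fold changes (x axes) of the 10 genes (y axis) for dorsal over ventral, in SH and in EE, and for EE over SH, in dorsal and in ventral DG, with 95% confidence intervals and filled points for adjusted p under 0.05. All filled points are in the region panel, and the intervals of the housing panel include or come close to 0.

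A test of whether the response to EE differed between the regions called 0 of the 10 genes, where 0.00587% of all genes were called, and DESeq2 also called 0. At an unadjusted p under 0.05 there was 1, Mirg, whose EE effect was larger in dorsal by 0.40 ± 0.16 on the log2 scale (adjusted p = 0.9999, edgeR). Among the 37 other imprinted genes, 0 were called for EE in either region, with 0 at an unadjusted p under 0.05 in dorsal and 3 in ventral DG. Those were Mest (0.18 ± 0.06, adjusted p = 0.425), Igf2 (0.31 ± 0.11, adjusted p = 0.441) and Kcnk9 (−0.23 ± 0.10, adjusted p = 0.603). The share of all genes at this unadjusted level is not given here for any of these counts. Igf2 is among the genes that moved with the choroid plexus markers, whose sum was 407 to 1153 CPM in ventral SH and 434 to 1491 CPM in ventral EE.

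Taken by housing, 7 of the 10 genes were called between regions in SH (6 lower and 1 higher in dorsal) and 6 in EE (5 lower and 1 higher). In SH 41.7% of all genes were called, 20.8% lower and 20.9% higher, and in EE 46.5%, 23.6% lower and 22.9% higher. Rian, Dlk1, Snrpn, Ndn and Cdkn1c were lower and Peg10 higher in both. Dlk1 is counted in both housings although it passed the count limit only through its ventral libraries, so its calls are a description only. Mirg was called in SH and not in EE.

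The genes whose pattern was most like each member were sought over the 18 libraries by Pearson's r of log2 CPM. The libraries differ in region, depth and pool, and a high r may reflect any of these. Rian was most like Sst (somatostatin, r = 0.98), Cacybp (0.97) and Grp (gastrin-releasing peptide, 0.97), and Ndn most like Mtfp1, Arl6ip1 and Itm2c (each 0.99). Sst stood at 47.2 to 56.1 CPM in dorsal and 91.9 to 108 CPM in ventral libraries, and of the 7 interneuron markers 4 were lower in dorsal (Sst, Vip, Pvalb and Lhx6), 2 higher (Gad1 and Npy) and Gad2 not called. The part of interneuron RNA in the difference of Rian was not tested. Snrpn was nearest to Fstl5 (0.96), Elavl2 (0.95) and Smim13 (0.94), and Dlk1 to Sdc3 (0.95), Dcdc2a (0.95) and Cdh22 (0.92). Peg3 was nearest to Usp9x (0.96), Afdn (0.95) and Atg2b (0.95), Peg10 to Sema3a (0.91), Slc25a42 (0.87) and Gm14636 (0.87), and Cdkn1c to Vat1l (0.94), Abca4 (0.93) and Steap1 (0.93). Meg3 was nearest to Tmem135 and Slc25a36 (0.88 each) and Pxdn (0.85), Grb10 to Prpf40b (0.91), Jak1 and Kif3b (0.90 each), and Mirg had the weakest best matches, Mtx1 and Metap1d (0.82 each) and Mcat (0.80).

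With the group means removed, some members still moved together from library to library. The deviations of Meg3 and Grb10 had r = 0.83, those of Peg3 and Grb10 also 0.83, and those of Meg3 and Peg3 0.73. Rian and Meg3, from 1 cluster, had r = 0.30, Meg3 and Mirg 0.24, and Rian and Mirg 0.16. Ndn and Snrpn, of 1 region, had r = −0.40. Among pairs from different loci, Rian and Peg10 had 0.65, Mirg and Ndn 0.61, Mirg and Peg10 0.57, and Mirg and Snrpn −0.51. No r over pairs of other genes is given here for comparison. The share of reads not on a gene ran from 32.6 to 40.9% over the 18 libraries. EE replicate 2 had the highest share of its group in dorsal (38.6%) and in ventral DG (40.9%). It also had the lowest Meg3, Peg3 and Grb10 of its group in both regions. For the SH library with the highest share this held for only some of these genes. The part of this share in these r was not tested.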

How the data were processed

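RNA-seq libraries were analysed; the MethylC-seq and TAB-seq samples were not used here. Per the labels, the authors trimmed reads with Trim Galore 0.4.0, aligned them to mm10 with STAR 2.5.1b and quantified genes with RSEM 1.2.30. The deposited STAR counts per gene (reverse strand) leave out reads shared by overlapping genes. The authors estimated the deposited expected counts, TPM and FPKM with RSEM, per library. Expected counts were rounded for tests, and FPKM was not used. In the TPM, 49.3 to 63% fell on Rn7s1, Rn7s2 and Rn7sk, so levels are CPM with TMM factors. Ensembl IDs were paired with symbols by the Gencode annotation (45968 of 46480).

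A gene was tested if its counts exceeded 10 in 2 or more of 18 libraries (17040 genes), by edgeR 4.0.16 (quasi-likelihood, 4 group means, Benjamini-Hochberg adjustment, R 4.3.3), checked on simulated data. Positive values mean higher in dorsal or in EE. Dorsal and ventral libraries of a number share mice, per the study's figure legends so an alternative has the pool as a block for region contrasts. SH and EE pools share only a number, which is the block for EE contrasts. The mean correlation of deviations was 0.068 within a pool and 0.105 between SH and EE libraries of a number. The 10 genes, lists and markers were chosen with earlier results of these data known. Named were the 10 genes, other imprinted genes called (at most 15 by region difference), the 3 nearest patterns of each gene and, after their values were seen, listed neighbors of the 10. Alternatives were DESeq2 1.42.0, a likelihood ratio test, RLE factors, no filter, unstranded counts, RSEM counts, all 20 libraries, the block, leaving out each pool, a 20% fold limit and a joint region test.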

Additional observations from a re-analysis of the deposited data

Results flagged for a closer look

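Of 40 sets of 4 or 5 libraries (10 genes in 4 groups), 3 held a library set apart from the others by Dixon's test at its 95% critical value, and chance alone sets apart about 1 in 20. Mirg in dorsal SH replicate 2 stood at 6.29 CPM, above the next library at 4.55 CPM. Snrpn in dorsal SH replicate 2 stood at 171 CPM, below the next at 189 CPM. Grb10 in dorsal EE replicate 2 stood at 24.7 CPM, below the next at 26.8 CPM. Without SH replicate 2 the log2 fold change of Mirg between regions in SH was −0.51 instead of −0.34.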

How the results depend on the processing

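The 9 counts of called genes stayed within 1.5 times their value in all 164 comparisons with an alternative. The members called between regions numbered 5 to 8, where the fold limit gave 5 and the joint test 6. The share of all genes called under each alternative is not given here, so these counts have no background beside them. The counts for EE and for region by housing stayed at 0. Of 867 comparisons for single genes, 814 kept direction and side of the threshold, 10 lost a call and 10 gained one. The calls that moved were those of Mirg, Peg3, Peg10 in EE, Grb10 and Cdkn1c in SH given above, and Peg3 in EE without SH replicate 1 (adjusted p = 0.0496). The sign changed in 33 comparisons, none of them of a called value, and the cause was not tested. With RSEM counts these were Mirg between regions in EE (−0.059) and Snrpn for EE in dorsal (0.034) and ventral DG (0.0073). With all 20 libraries they were Peg3 (0.013) and Peg10 (0.0091) for EE in dorsal DG. With the replicate block they were Peg3 for EE in ventral DG (−0.021) and Grb10 for EE in dorsal DG (0.00020). Among the 10 genes the block changed no other calls than those of Peg3 and Grb10, and with it 24 instead of 25 other imprinted genes were called between regions.

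When 1 pool was left out, the values between regions in EE ran from −0.057 to 0.057 for Meg3 and from −0.019 to 0.12 for Mirg. The values for EE in dorsal DG ran from −0.045 to 0.094 for Meg3, −0.024 to 0.60 for Dlk1, −0.034 to 0.038 for Peg3, −0.10 to 0.044 for Peg10, −0.057 to 0.0092 for Snrpn and −0.035 to 0.024 for Grb10. In ventral DG they ran from −0.26 to 0.0069 for Meg3, −0.069 to 0.083 for Peg3, −0.044 to 0.0030 for Snrpn and −0.017 to 0.11 for Grb10. Depth limits Dlk1 most, and it had at most 35 counts in a library.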

Other observations

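In the pool left out for its Xist level, SH replicate 3, the members lay mostly near the other SH libraries. In its dorsal and ventral library, Rian stood at 256 and 342 CPM, Ndn at 200.3 and 281 CPM, Snrpn at 186 and 211 CPM and Cdkn1c at 3.40 and 4.82 CPM. Meg3 at 90.8 CPM and Mirg at 3.37 CPM in the ventral library were below every one of the 18 other libraries.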
